A study of Mus musculus with 8 samples.

Results

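Cyclic AMP (cAMP) is made by adenylyl cyclases, destroyed by phosphodiesterases and read by protein kinase A (PKA), by the exchange factors called Epac and, through PKA, by transcription factors of the CREB family. The 32 genes described here encode 9 membrane adenylyl cyclases, 10 phosphodiesterases, 6 PKA subunits, 2 Epac proteins, 2 CREB family factors and 3 coactivators of CREB. They were taken as a list of genes that act downstream of β-adrenergic receptors and were matched by Ensembl identifier to the 55417 gene rows of the count tables, where all 32 were found.

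The cells were wild-type mouse astrocytes of postnatal day 29, isolated by flow sorting. Each of 4 mice gave a cortical and a subcortical library, so that the 2 regions had 4 libraries each. Mice 2 and 3 were female and mice 1 and 4 male. The sources used here do not state the sorting gate or the structures that made up the subcortical tissue. Reads came from transcript 3′ ends, so a level here is CPM (a gene's counts relative to the library total, with TMM scaling) and is not divided by transcript length. Libraries of one region came from different animals. In such bulk samples, fewer cells with a transcript and less of it per cell cannot be told apart.

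The title of the series is about β-adrenergic signalling in astrocytes. A β-adrenergic receptor acts through the stimulatory G protein on adenylyl cyclase. The cAMP that forms frees the catalytic subunits of PKA from its regulatory subunits, and PKA phosphorylates CREB. PKA also acts on the salt-inducible kinases, which otherwise keep the CREB coactivators (CRTC proteins) out of the nucleus. In astrocytes cAMP is known for its effects on glycogen breakdown, gene expression and cell shape.

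Gene counts per library ranged from 3537852 to 4060891 in cortical and from 2484717 to 3829804 in subcortical libraries. Mitochondrial transcripts took 8.95 to 11.3% of cortical and 9.40 to 13.6% of subcortical counts. None of the 10 astrocyte markers was at 0 in all libraries, 3 were called higher and 2 lower in cortical libraries, and they summed to 33698 to 34932 CPM in cortical libraries, against 23971 to 26447 CPM in subcortical ones. RNA of other cells was also present. The 10 neuron markers summed to 219 to 472 CPM in cortical libraries, against 51.9 to 63.9 CPM in subcortical ones, with Nrgn and Syt1 the highest, and 2 of 7 tested were called higher in cortical libraries. The 7 oligodendrocyte markers summed to 826 to 1338 CPM in cortical libraries, against 2199.6 to 5584 CPM in subcortical ones, and 6 of 7 were called lower in cortical libraries. Each of these 3 sums gave the smallest p that an exact two-sided permutation test of 4 libraries against 4 allows (p = 0.0286). Sums of the microglia, endothelium, mural and ependymal cell lists gave p from 0.143 to 0.971. Of 6 tested microglia markers, Cx3cr1 and C1qa were called higher in cortical libraries (edgeR adjusted p = 0.0458 and 0.0382), and 1 of 4 ependymal markers was called lower.

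The share of these genes that passed the test between regions was near that of all genes. By edgeR's quasi-likelihood test over 11781 genes, 2 of the 26 members with enough counts to test fell in cortical libraries, against 3.39% of all genes tested. These were Adcy8 and Pde4d, and both were also called with the mouse as a block. The main fit had no term for the mouse, so its errors and p-values are unpaired. Of the 26, 0 were called higher, against 3.42% of all genes, and DESeq2 also called 0 higher. In either direction 6.81% of all genes passed the adjusted p of 0.05, and 2 of 26 is near that share. At an unadjusted p under 0.05 there were 3 of the 26 members, the 2 above and Crtc1, against 17.4% of all genes tested. The median log2 fold change of the 26 members was 0.18, cortical minus subcortical, and the median size of the change without its sign was 0.33. Over all tested genes these medians were -0.01 and 0.35.

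How much these tests can tell depends on the depth of each gene. The 95% interval of the log2 fold change lay within 2-fold in both directions for 10 of the 26 tested members and reached beyond it for 16. Of the other 6 members, Adcy4, Adcy7, Pde1a, Pde2a, Pde3b and Crtc2 had 0 to 64 counts over all 8 libraries and were not tested. Only Pde4b had cortical libraries that did not overlap the subcortical ones, 1 of 26 against 12.2% of all genes tested.

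**Figure D1:**
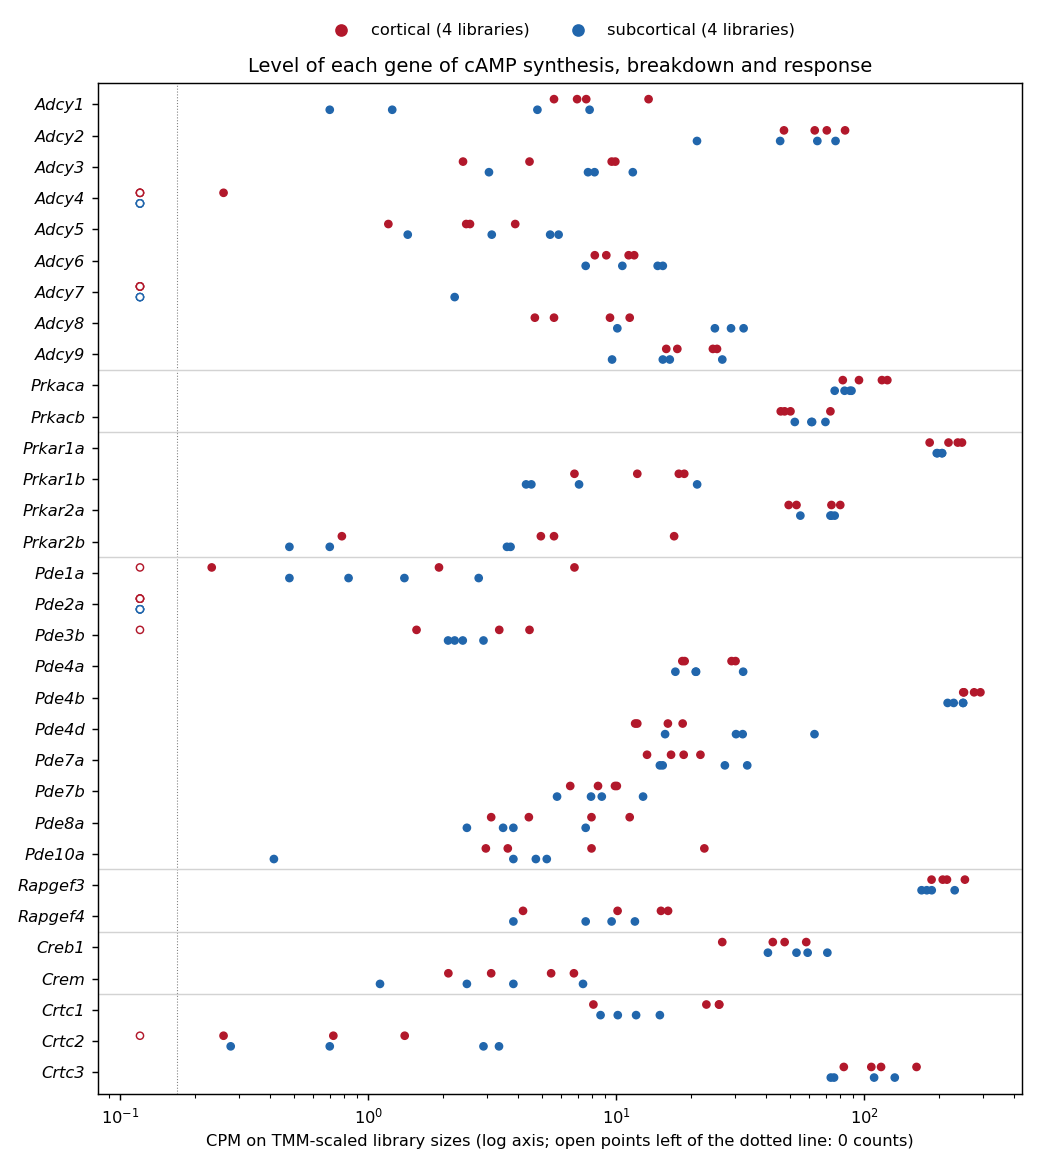
Level of each of the 32 genes in every library, in CPM on a log axis, with cortical libraries above subcortical ones for each gene. Open points mark 0 counts, and grey lines divide the genes by role. Pde4b, Prkar1a and Rapgef3 stood highest in both regions, and the points of the regions overlap for most genes.

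Levels ranged widely among the members. Over all 8 libraries 4 members averaged above 100 CPM, namely Pde4b, Prkar1a, Rapgef3 and Crtc3, and 13 averaged between 10 and 100 CPM. The other 15 averaged under 10 CPM, and 5 of these under 2 CPM. The 250 bases before 1 transcription start a gene are shown for the 3 most abundant members and for Pde4d, one of the 2 that differed by region, since CREB binds a short palindrome, TGACGTCA, known as the cAMP response element. The sequences are RefSeq's on GRCm38.p6, another build than the GRCm39 of the counts. Of the 4 windows listed for Pde4b and the 6 for Prkar1a, the one with the most matches to the motif was picked, so its matches are no finding, while Rapgef3 and Pde4d have 1 window each. Capitals mark the palindrome or either of its half-sites, TGACG and CGTCA, both of which it contains.
Pde4b, chr4:102421305-102421554, plus strand: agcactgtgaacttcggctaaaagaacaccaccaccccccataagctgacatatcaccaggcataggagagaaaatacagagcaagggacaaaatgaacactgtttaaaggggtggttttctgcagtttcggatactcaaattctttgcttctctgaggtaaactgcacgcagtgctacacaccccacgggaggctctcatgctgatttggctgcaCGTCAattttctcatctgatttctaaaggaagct
Prkar1a, chr11:109650699-109650948, plus strand: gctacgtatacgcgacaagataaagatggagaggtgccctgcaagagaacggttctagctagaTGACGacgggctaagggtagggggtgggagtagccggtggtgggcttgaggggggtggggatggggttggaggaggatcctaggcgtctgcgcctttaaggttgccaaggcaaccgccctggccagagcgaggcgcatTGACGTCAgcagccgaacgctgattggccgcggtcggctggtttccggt
Rapgef3, chr15:97767667-97767916, minus strand: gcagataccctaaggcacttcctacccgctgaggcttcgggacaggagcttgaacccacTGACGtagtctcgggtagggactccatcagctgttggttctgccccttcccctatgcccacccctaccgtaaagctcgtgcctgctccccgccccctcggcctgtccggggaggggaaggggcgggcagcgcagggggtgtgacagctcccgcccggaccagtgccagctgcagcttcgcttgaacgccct
Pde4d, chr13:108653927-108654176, plus strand: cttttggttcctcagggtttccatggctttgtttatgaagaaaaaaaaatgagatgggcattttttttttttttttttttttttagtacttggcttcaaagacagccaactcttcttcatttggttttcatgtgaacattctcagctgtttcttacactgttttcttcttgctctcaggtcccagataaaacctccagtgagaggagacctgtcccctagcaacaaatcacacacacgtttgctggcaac
The Prkar1a window held 1 full palindrome, 49 bases before the start, and a further half-site 187 bases before it. Pde4b and Rapgef3 held 1 half-site each, 34 and 191 bases before the start, and the Pde4d window held neither. The table has entries for 26 of the 32 members, of which 1 (3.85%) held the palindrome in any window, against 1.77% of 27025 genes. Half-sites were in 11 members (42.3%), against 19.8% of genes. The members have 2.12 windows per gene and all genes 1.22, and counted by window the shares were 23.6% and 17.8%. A match describes these letters and does not show that CREB binds there.

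The cyclases carry the first difference between regions. Adcy8, which encodes a cyclase that calcium and calmodulin stimulate, had 9.43, 4.69, 5.61 and 11.3 CPM in cortical libraries of mice 1 to 4, and 24.97, 10.1, 29.005 and 32.6 CPM in the subcortical libraries of the same mice. The cortical library was the lower one in all 4 mice, although cortical 4 stood above subcortical 2. Its means were 7.76 ± 3.14 CPM in cortical libraries, against 24.2 ± 9.89 CPM in subcortical ones (SD, n = 4 each). The log2 fold change was -1.64 (SE 0.42, 95% interval -2.52 to -0.76, edgeR adjusted p = 0.0174), a level 3.12-fold lower in cortical libraries. The call was lost without any one of cortical 2, cortical 3, subcortical 3 and subcortical 4, where the adjusted p lay between 0.0564 and 0.0775. Without both libraries of mouse 1, 3 or 4 it was 0.0834, 0.156 and 0.0524.

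Adcy2, a cyclase that the βγ subunits of G proteins stimulate, was the most abundant cyclase. It had 83.6, 63.1, 47.4 and 70.6 CPM in cortical libraries, and 45.8, 21.1, 76.5 and 64.6 CPM in subcortical libraries. Its regions overlapped and it was not called (log2 fold change 0.34, SE 0.29, edgeR adjusted p = 0.636). Adcy9, a cyclase that forskolin stimulates only weakly, had 20.9 ± 4.82 CPM in cortical libraries, against 17.04 ± 7.13 CPM in subcortical ones (SD, n = 4). Adcy6, which calcium inhibits, had 10.1 ± 1.71 CPM in cortical libraries, against 12.04 ± 3.69 CPM in subcortical ones (SD, n = 4). Adcy3, known from olfactory neurons and from primary cilia, had 6.59 ± 3.74 CPM in cortical libraries, against 7.64 ± 3.53 CPM in subcortical ones (SD, n = 4). None of these 3 was called, with edgeR adjusted p from 0.776 to 0.926.

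Adcy1, another cyclase that calmodulin stimulates, had 6.95, 7.56, 5.61 and 13.5 CPM in cortical libraries, and 1.25, 4.81, 0.699 and 7.80 CPM in subcortical libraries. The cortical library was the higher one in all 4 mice, but the difference was not called (log2 fold change 1.18, SE 0.74, 95% interval -0.35 to 2.71, edgeR adjusted p = 0.460). Adcy5, the main cyclase of striatal neurons, had 1.20 to 3.91 CPM in cortical libraries, against 1.44 to 5.85 CPM in subcortical ones. Adcy4 had 1 count in all, in cortical 2, and Adcy7, a cyclase of blood and immune cells, had 8 counts, all in subcortical 4. A count of 0 in a library allows up to 0.701 to 1.44 CPM (3 counts), so that lower levels of these genes were not detectable at this depth.

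Summed over the 9 cyclases, levels were 122 ± 11.9 CPM in cortical libraries, against 121 ± 39.4 CPM in subcortical ones (SD, n = 4), with the lowest sum, 65.8 CPM, in subcortical 2. Adcy8 made up 3.75 to 8.94% of this sum in cortical and 15.3 to 21.7% in subcortical libraries. In this share the regions did not overlap. Subcortical 2, the lowest subcortical library in Adcy8, was also the lowest in Adcy2. Adcy2 made up 45.01 to 63.0% in cortical and 32.1 to 51.7% in subcortical libraries.

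**Figure D2:**
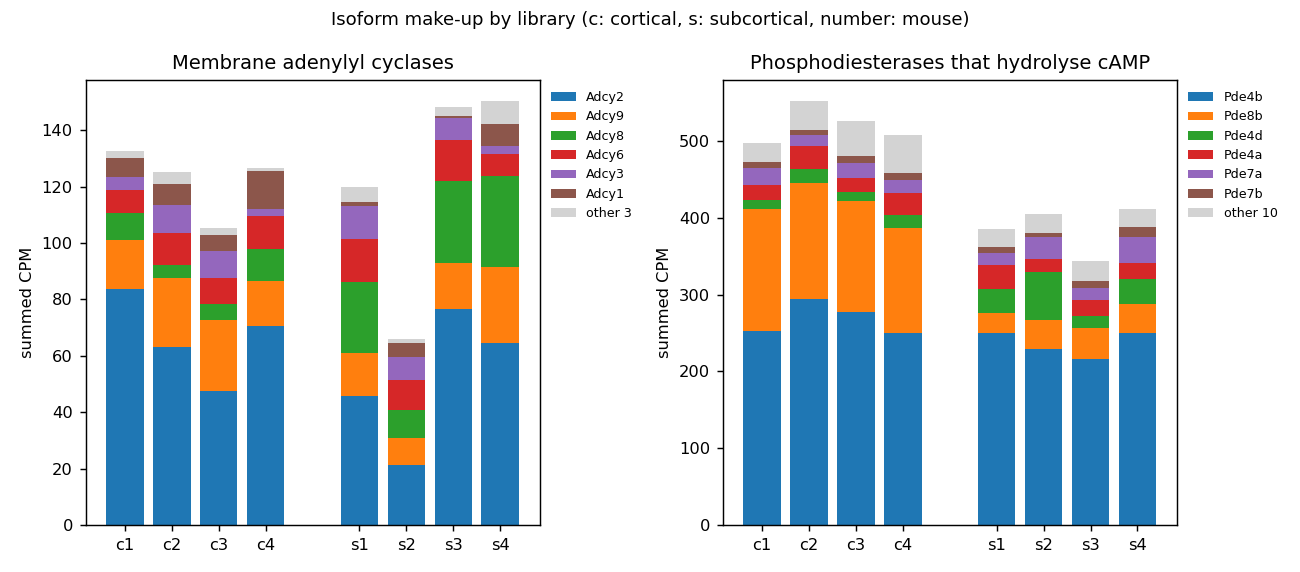
Summed CPM by gene in each library (c, cortical; s, subcortical; the number is the mouse), for the 9 membrane cyclases on the left and 16 listed phosphodiesterases that hydrolyse cAMP on the right. Within each mouse the Adcy8 segment is shorter in the cortical bar and the Pde8b segment taller, while Adcy2 and Pde4b are the tallest segments in most bars.

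Of the 6 PKA subunits, 0 were called by edgeR or DESeq2, with 0 at an unadjusted p under 0.05, against 17.4% of all genes. Against 6.81% of all genes called, a count of 0 among 6 is near the background, as is 1 among 7 cyclases. Prkar1a, which encodes the regulatory subunit RIα, had 248, 238, 183 and 218 CPM in cortical libraries, and 206, 197, 205 and 196 CPM in subcortical libraries. The subcortical values all fell inside the cortical range. The log2 fold change was 0.14 (SE 0.16, 95% interval -0.19 to 0.47, edgeR adjusted p = 0.738). Prkaca, the gene of the catalytic subunit Cα, had 124, 81.9, 118 and 95.1 CPM in cortical libraries, and 83.2, 75.9, 88.8 and 87.5 CPM in subcortical libraries. It was higher in the cortical library of all 4 mice, but not called (log2 fold change 0.32, SE 0.19, edgeR adjusted p = 0.434).

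Prkacb, the gene of the catalytic subunit Cβ, had 54.3 ± 12.6 CPM in cortical libraries, against 61.2 ± 7.05 CPM in subcortical ones (SD, n = 4). Prkar2a, the gene of the regulatory subunit RIIα, had 64.1 ± 14.98 CPM in cortical libraries, against 69.4 ± 9.57 CPM in subcortical ones (SD, n = 4). Neither was called, with edgeR adjusted p of 0.778 and 0.865. Prkar1a made up 65.3 to 80.7% of the summed CPM of the 4 regulatory subunits in cortical and 66.7 to 77.3% in subcortical libraries. Prkaca made up 56.6 to 71.9% of the catalytic sum in cortical and 52.1 to 61.3% in subcortical libraries.

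The regulatory subunits RIβ and RIIβ are known as the neural forms. Prkar1b (RIβ) had 17.9, 6.78, 12.1 and 18.8 CPM in cortical libraries, and 7.07, 4.33, 4.54 and 21.2 CPM in subcortical libraries. In both regions it was highest in mouse 4. Prkar2b (RIIβ) had 4.96, 0.782, 5.61 and 17.1 CPM in cortical libraries, and 3.74, 0.481, 0.699 and 3.62 CPM in subcortical libraries, higher on the cortical side in all 4 mice. By edgeR neither was called. The log2 estimate for Prkar1b was 0.55 (SE 0.53, adjusted p = 0.674) and that for Prkar2b was 1.70 (SE 0.91, adjusted p = 0.362). Cortical 4, where Prkar2b, Adcy1 and Pde10a were highest, also had the highest neuron marker sum, 472 CPM, and the part of neuronal RNA in these 3 values was not tested.

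Among the phosphodiesterases the PDE4 family, which is specific for cAMP, held both the most abundant member and the second difference. Pde4b had 252, 294, 277 and 250.5 CPM in cortical libraries, and 250.1, 229, 217 and 250.2 CPM in subcortical libraries. The lowest cortical value lay just above the highest subcortical one. The log2 fold change was 0.18 (SE 0.16, 95% interval -0.14 to 0.50) and was not called (edgeR adjusted p = 0.624). Pde4a had 24.2 ± 6.39 CPM in cortical libraries, against 22.9 ± 6.59 CPM in subcortical ones (SD, n = 4, edgeR adjusted p = 0.945).

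Pde4d went the other way. It had 11.9, 18.5, 12.1 and 16.1 CPM in cortical libraries, and 30.4, 63.0, 15.7 and 32.3 CPM in subcortical libraries. The cortical library was lower in all 4 mice, by the least in mouse 3, and subcortical 2 stood well above the other subcortical libraries. The log2 fold change was -1.26 (SE 0.36, 95% interval -2.01 to -0.51, edgeR adjusted p = 0.0359), a level 2.39-fold lower in cortical libraries. Without subcortical 2 the log2 fold change was -0.83 (edgeR adjusted p = 0.246). The call was also lost without any one of cortical 1, cortical 3, subcortical 1 and subcortical 4 (adjusted p from 0.0574 to 0.109), without mouse 1, 2 or 4 (0.0739 to 0.225) and with limma-voom (0.0922).

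Oligodendrocyte transcripts moved in the same direction as Adcy8 and Pde4d, with marker sums of 1197, 826, 968 and 1338 CPM in cortical 1 to 4, and 5584, 3081, 2848 and 2199.6 CPM in subcortical 1 to 4. All subcortical sums lay above all cortical ones. The highest sum was in subcortical 1, the highest Pde4d level in subcortical 2 and the highest Adcy8 level in subcortical 4. Of the 5 markers of oligodendrocyte precursors, 2 of 3 tested, Olig1 and Olig2, were called lower in cortical libraries. Cspg4 was even (log2 fold change -0.05, edgeR adjusted p = 0.976). Pdgfra had 6 counts over the cortical and 5 over the subcortical libraries, and Gpr17 was at 0 in all 8. The list, with Olig1 and Olig2 the highest, summed to 224 to 294 CPM in cortical libraries, against 381 to 655 CPM in subcortical ones (exact two-sided permutation p = 0.0286). The part of these cells in the 2 differences was not tested.

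**Figure D3:**
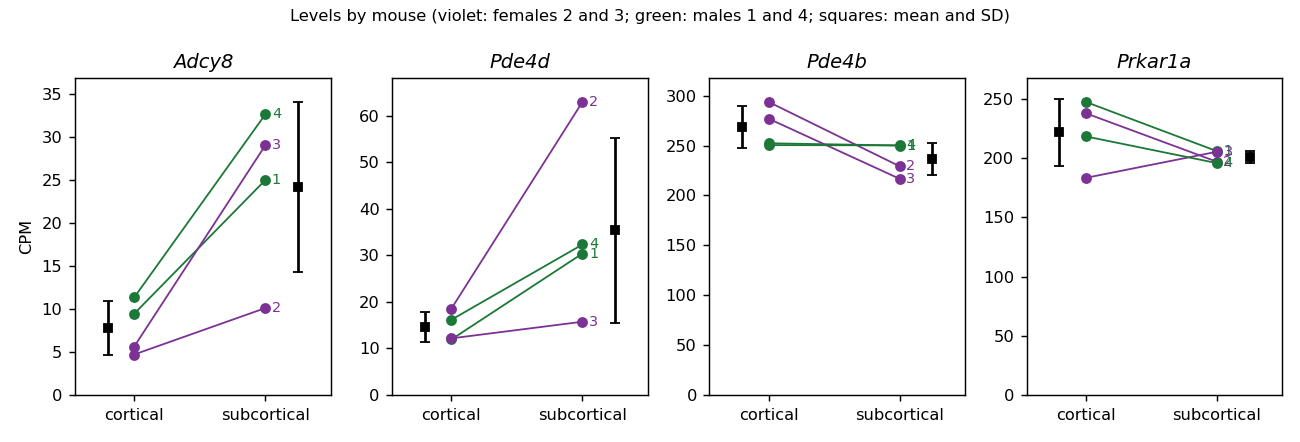
CPM in the cortical and subcortical library of each mouse for Adcy8, Pde4d, Pde4b and Prkar1a, with a line per mouse (violet for females, green for males) and the mean and SD of each region as squares. For Adcy8 and Pde4d all 4 lines are lower on the cortical side. The 4 lines of Pde4b, which was not called, are higher on that side. They are nearly flat in mouse 1 (252.3 against 250.1 CPM) and mouse 4 (250.5 against 250.2 CPM). The lines of Prkar1a run both ways.

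The remaining phosphodiesterases stood at lower levels. Pde7a and Pde7b, genes of a second family specific for cAMP, had 17.6 ± 3.59 and 8.72 ± 1.64 CPM in cortical libraries, and 22.9 ± 9.24 and 8.81 ± 2.95 CPM in subcortical libraries (SD, n = 4). Pde8a, of the high-affinity PDE8 family, had 6.71 ± 3.69 CPM in cortical libraries, against 4.34 ± 2.20 CPM in subcortical ones (SD, n = 4). None of these 3 was called (edgeR adjusted p from 0.650 to 0.990). Pde10a, an enzyme known from striatal projection neurons, had 2.98, 3.65, 7.94 and 22.6 CPM in cortical libraries, and 0.416, 3.84, 5.24 and 4.74 CPM in subcortical libraries. Cortical 4 stood apart and the difference was not called (log2 fold change 1.36, SE 0.77, edgeR adjusted p = 0.398). The 8 markers of those neurons summed to 92.8 to 125 CPM in cortical libraries, against 62.4 to 81.1 CPM in subcortical ones (exact two-sided permutation p = 0.0286), the same direction as the Pde10a means. Ppp1r1b and Adora2a were the highest of them, 1 of 3 tested was called higher (Adora2a), and Tac1 was at 0 in all libraries. The part of these cells in the Pde10a values was not tested.

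Pde1a, which calmodulin activates, summed to 35 counts over the cortical and 17 over the subcortical libraries. Pde3b, which cGMP inhibits, summed to 38 counts over the cortical and 26 over the subcortical libraries. Pde2a, which cGMP stimulates, was listed at 0 in all 8 libraries. In the GENCODE annotation its exons overlap those of Gm45837 on the same strand, which was also at 0. The authors' counting set aside as ambiguous 0.384 to 0.548% of the reads counted to a gene, to no feature or as ambiguous. Whether reads of Pde2a were among them was not tested. In all, 9 members have exons that overlap another gene. For Adcy2, Adcy3, Adcy6, Pde7a, Rapgef3, Rapgef4 and Crem that gene lies on the other strand. Since the strand setting is not known, these 7 may have lost reads as ambiguous or may include reads of the other gene. Prkar1b overlaps Gm15672 on the same strand and may also have lost reads. Neither was tested.

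Epac1 was the prevailing Epac. Its gene Rapgef3 had 215, 207, 254 and 187 CPM in cortical libraries, and 231, 170.1, 187 and 179 CPM in subcortical libraries. The ranges overlapped, with a log2 fold change of 0.17 (SE 0.17, 95% interval -0.18 to 0.52, edgeR adjusted p = 0.688). Rapgef4, the gene of Epac2, had 11.4 ± 5.48 CPM in cortical libraries, against 8.20 ± 3.41 CPM in subcortical ones (SD, n = 4, edgeR adjusted p = 0.740). Rapgef3 made up 92.8 to 98.4% of the sum of both genes in cortical and 94.0 to 97.8% in subcortical libraries.

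Of 4 tested genes of CREB factors and coactivators 0 were called by edgeR or DESeq2, against 6.81% of all genes. An unadjusted p under 0.05 was found for 1 of the 4, against 17.4% of all genes. Creb1, the gene of the factor itself, had 58.3, 47.7, 42.7 and 26.7 CPM in cortical libraries, and 53.3, 40.8, 70.9 and 59.1 CPM in subcortical libraries, and was not called (log2 fold change -0.36, SE 0.26, edgeR adjusted p = 0.549). Crem, whose product acts as activator or repressor depending on the isoform, had 2.10 to 6.74 CPM in cortical libraries, against 1.11 to 7.34 CPM in subcortical ones. Crtc3 was the main coactivator gene, with 117 ± 33.4 CPM in cortical libraries, against 97.7 ± 28.6 CPM in subcortical ones (SD, n = 4, edgeR adjusted p = 0.634). Crtc1, known from neurons, had 23.1, 8.08, 25.9 and 26.0 CPM in cortical libraries, and 14.98, 12.01, 10.1 and 8.64 CPM in subcortical libraries. Cortical 2 stood below all 4 subcortical libraries, and the other 3 cortical libraries stood above all of them. Its log2 fold change was 0.87 (SE 0.40, 95% interval 0.03 to 1.71), with an edgeR adjusted p of 0.264, and of 0.0803 without cortical 2. Crtc2 summed to 10 counts over the cortical and 17 over the subcortical libraries.

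**Figure D4:**
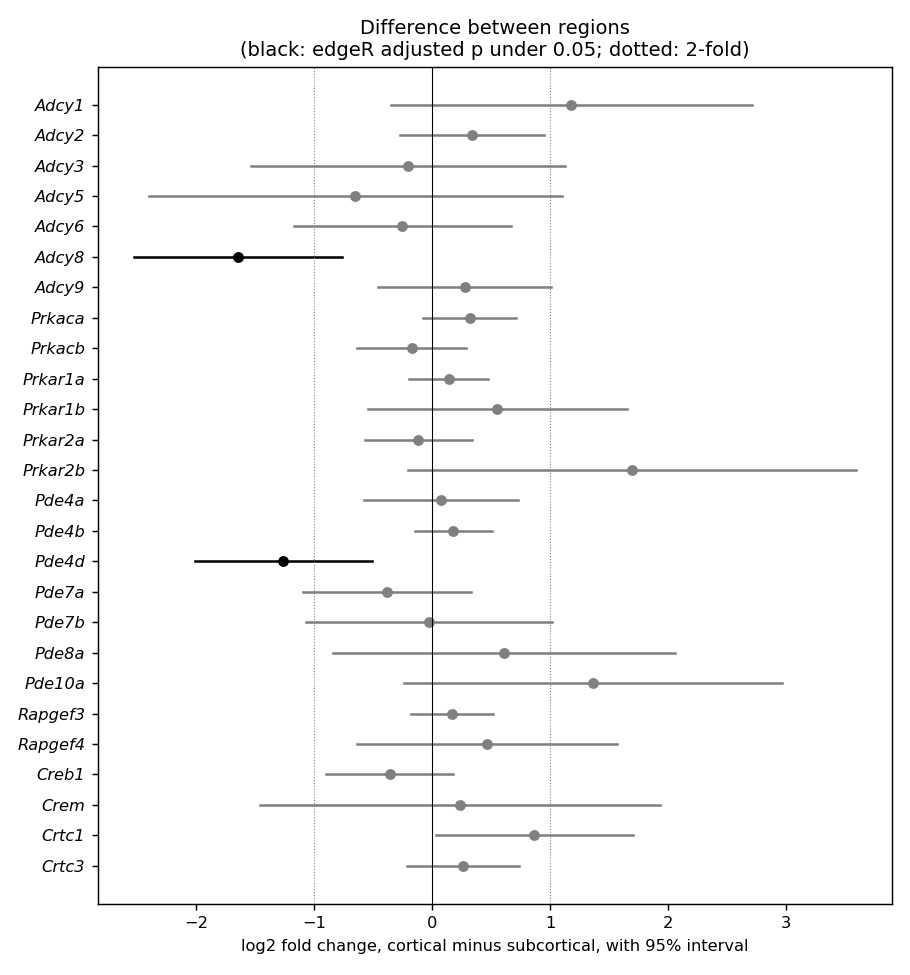
Log2 fold change between regions (cortical minus subcortical) with its 95% interval for the 26 tested members, in black where the edgeR adjusted p was under 0.05. Only Adcy8 and Pde4d are black, both left of 0, and the narrow intervals near 0 belong to abundant genes such as Prkar1a, Pde4b and Rapgef3.

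Other genes of the pathway, were drawn from 8 lists with 84 genes. Of 54 tested, 5 rose in cortical libraries and 0 fell, against 3.42% and 3.39% of all genes tested. DESeq2 called 1 of them lower, the β1-adrenergic receptor gene Adrb1, and 5 of the 54 were lower at an unadjusted p under 0.05. In either direction 14 of the 54 had an unadjusted p under 0.05, against 17.4% of all genes. Pde8b, which encodes a high-affinity phosphodiesterase specific for cAMP, had 159.5, 151, 145 and 137 CPM in cortical libraries, and 26.2, 37.5, 39.8 and 37.9 CPM in subcortical libraries. All cortical values lay above all subcortical ones, a 4.18-fold difference (log2 fold change 2.06, SE 0.20, edgeR adjusted p = 2.2e-07). With Pde8b, the 16 listed phosphodiesterases that hydrolyse cAMP summed to 521 ± 24.1 CPM in cortical libraries, against 386 ± 30.6 CPM in subcortical ones (SD, n = 4). Pde8b made up 26.9 to 32.1% of that sum in cortical and 6.80 to 11.6% in subcortical libraries, Pde4d 2.31 to 3.35% in cortical and 4.58 to 15.6% in subcortical libraries, and Pde4b 49.4 to 53.2% in cortical and 56.7 to 64.9% in subcortical libraries. The order of the Pde4b share depended on the enzymes summed. In the sum of the 10 member phosphodiesterases alone, without Pde8b, its mean share was 75.8% in cortical and 70.2% in subcortical libraries. Pde8b was 1 of 5 tested among 10 other phosphodiesterases.

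Upstream of the cyclases, Gnao1, which encodes the α subunit of the inhibitory-class G protein Go, had 1338, 1262, 1374 and 1391 CPM in cortical libraries, and 163, 197, 157 and 155 CPM in subcortical libraries. It was 7.99-fold higher in cortical libraries (log2 fold change 3.00, SE 0.16, edgeR adjusted p = 4.9e-11) and the only one of 7 genes of G proteins acting on cyclases to be called. Among 6 tested receptors that couple to the stimulatory G protein, 2 rose. Ptger4, the gene of the prostaglandin E2 receptor EP4, had 25.3, 17.5, 25.9 and 21.2 CPM in cortical libraries, and 1.25, 0, 0.699 and 6.13 CPM in subcortical libraries (log2 fold change 3.32, SE 0.64, edgeR adjusted p = 0.0015). The adenosine receptor gene Adora2a had 27.5, 69.9, 55.6 and 53.0 CPM in cortical libraries, and 25.4, 30.3, 12.2 and 12.5 CPM in subcortical libraries. Its regions overlapped, since cortical 1 lay below subcortical 2 (log2 fold change 1.38, SE 0.34, edgeR adjusted p = 0.0119), and the call was lost without cortical 2 (adjusted p = 0.0557) and without mouse 3 or 4 (0.116 and 0.0642). Adrb1 had 97.8, 103, 98.1 and 86.0 CPM in cortical libraries, and 162, 129, 135 and 130.1 CPM in subcortical libraries, with an edgeR adjusted p of 0.0721.

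Markers of other cells were also higher on the cortical side, with neuron sums of 219 to 472 CPM in cortical libraries, against 51.9 to 63.9 CPM in subcortical ones, and the microglia markers Cx3cr1 and C1qa called higher. Adora2a is itself on the list of striatal neuron markers. The part of such cells in the differences of Pde8b, Gnao1, Ptger4, Adora2a and Akap7 was not tested.

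Akap7 was the 1 of 9 tested A-kinase anchoring proteins, which tether PKA to membranes and channels, to be called. It had 65.0, 87.9, 79.4 and 92.0 CPM in cortical libraries, and 47.0, 51.9, 52.4 and 50.7 CPM in subcortical libraries (log2 fold change 0.68, SE 0.20, edgeR adjusted p = 0.0438). It lost its call in 14 of 20 alternative settings, with adjusted p up to 0.160, among them each single library other than cortical 1. In 4 lists 0 genes were called by edgeR. These were 3 tested PKA inhibitors and other cAMP effectors, 6 Epac targets, 8 CREB cofactors and salt-inducible kinases and 10 known CREB target genes. DESeq2 called Dusp1, and at an unadjusted p under 0.05 the lists had 1, 0, 1 and 3 genes, against 17.4% of all genes tested. Pkia, the gene of a PKA inhibitor peptide, had 68.5 ± 15.3 CPM in cortical libraries, against 43.3 ± 14.6 CPM in subcortical ones (SD, n = 4, edgeR adjusted p = 0.167). Sik3, a salt-inducible kinase gene, had 54.6 ± 7.62 CPM in cortical libraries, against 33.9 ± 6.44 CPM in subcortical ones (SD, n = 4, edgeR adjusted p = 0.0977). Dusp1, a phosphatase gene that CREB can induce, had 28.6 ± 5.41 CPM in cortical libraries, against 13.5 ± 5.41 CPM in subcortical ones (SD, n = 4, edgeR adjusted p = 0.0573, and called with the mouse as a block). Next after these in their lists came the channel gene Hcn2, the factor gene Atf2 and the early-response gene Egr1, with edgeR adjusted p of 0.708, 0.636 and 0.183. Of the Epac targets, the small GTPase genes Rap2a and Rap2b came first (edgeR adjusted p = 0.377 and 0.566).

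**Figure D5:**
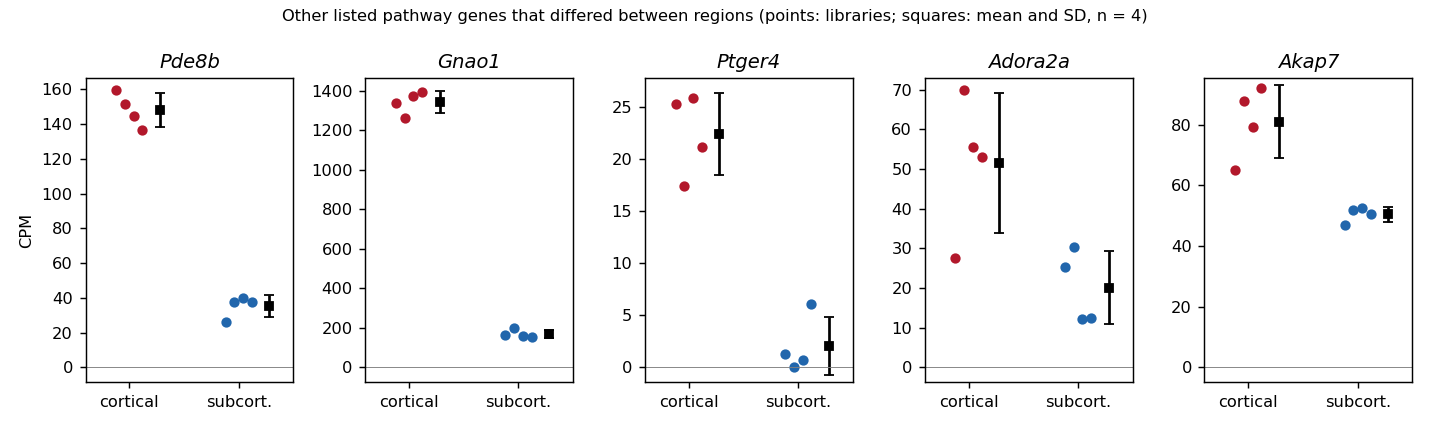
CPM in each library for the 5 other pathway genes that were called by region, with cortical libraries left of subcortical ones and the mean and SD as squares. Pde8b, Gnao1, Ptger4 and Akap7 do not overlap between regions, and Adora2a does.

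The series is titled after female mice, so the sexes were compared on counts summed per mouse, 2 females against 2 males. By edgeR 0 of 28 tested members were called, against 0.0373% of all genes, and DESeq2 called 0 as well. At an unadjusted p under 0.05 there was 1 of the 28 members, against 3.73% of all genes tested, namely Prkar1b. It had 5.98 and 9.23 CPM in females 2 and 3, and 14.0 and 20.01 CPM in males 1 and 4 (log2 fold change female minus male -1.16, SE 0.46, edgeR adjusted p = 0.999). The medians of the members were -0.20 for the signed and 0.27 for the unsigned log2 fold change, and 0.27 unsigned over all tested genes. For 26 members a test asked whether the regional difference was itself different in females and males. By edgeR 0 were called, against 0% of all genes, and DESeq2 called 0. At an unadjusted p under 0.05 there were 0 members, against 3.42% of all genes. Adcy8 was lower in cortical libraries in both sexes, by a log2 difference of means of -1.92 in females and -1.47 in males, and Pde4d by -1.36 in females and -1.16 in males. The fitted log2 difference between these regional differences, female minus male, was -0.46 for Adcy8 (SE 0.82) and -0.19 for Pde4d (SE 0.75).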

How the data were processed

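Per the labels' protocols, RNeasy Plus Micro columns gave the RNA and QuantSeq 3′ FWD the libraries. Per the submitters' processing notes, the tools were STAR 2.6.0, HTSeq 0.9.0, FastQC 0.11.5 and DESeq2 1.35.0, on GRCm39; no settings are listed. Whole-number counts per gene, one file a sample, were used as the authors deposited them, without the 5 summary rows. Of reads counted to a gene, to no feature or as ambiguous, 30.2 to 40.7% had no feature. Whether molecular identifiers were used is not stated, so floors cover counting error only. A table of normalized values was not used here. Symbols were matched for 52083 of 55417 rows.

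The main test was edgeR 4.0.16 (R 4.3.3, filterByExpr with 10 counts in about 4 libraries and 15 in total, TMM, quasi-likelihood tests, Benjamini-Hochberg at 0.05 over all tested genes). Alternatives used DESeq2 1.42.0, limma-voom 3.58.1, RLE factors, 2 other low-count filters, TMM leaving out mitochondrial and other-cell genes, a sex covariate, a mouse block and each library or mouse left out. The mouse numbers in the titles pair the libraries, since both came from 1 animal. Deviations of the same mouse correlated at 0.0195 to 0.0592. Members and lists were chosen with earlier results of these data known. All members are named, and of each other list the called genes or else up to 2 with the smallest p, with Adrb1 added for the subject of the series.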

Additional observations from a re-analysis of the deposited data

Results flagged for a closer look

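In 70 groups of 4 libraries in which the values of a named gene varied, the library farthest out was set against the range of its group, and 6 stood apart, where chance gives about 1 in 20 groups. Prkacb stood at 73.0 CPM in cortical 4, against 46.0 to 50.4 CPM in the other cortical libraries. Prkar1b stood at 21.2 CPM in subcortical 4, against 4.33 to 7.07 CPM in the other subcortical libraries. Prkar2a stood at 55.2 CPM in subcortical 3, against 73.0 to 75.9 CPM in the others. Crtc1 stood at 8.08 CPM in cortical 2, against 23.1 to 26.0 CPM in the others. Adcy4 stood at 0.261 CPM in cortical 2, a single count, and Adcy7 at 2.23 CPM in subcortical 4, and both were at 0 in the other libraries of their region. With 3 libraries at 0 any count stands apart, so these 2 say nothing against chance, and the single Adcy4 count lies below the level that a 0 allows. Without these 2, the flags left were near the number that 1 in 20 gives over 70 groups.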

How the results depend on the processing

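The 2 members called by region were also called with RLE factors, DESeq2, either other filter, TMM without mitochondrial and other-cell genes, sex as a covariate and the replicate block. With limma-voom 1 was called, and without single libraries or mice 0 to 2. The paired fit with the replicate block changed no call of a member. Of other pathway genes, 5 were called by the main edgeR test, 6 with the replicate block and 3 to 5 without single libraries or mice. The direction of Adcy8, Pde4d, Pde8b, Gnao1, Ptger4, Adora2a and Akap7 held in all settings, and Pde8b, Gnao1 and Ptger4 were called in all. Signs of 5 uncalled members turned. Without single libraries or mice, log2 fold changes ran from -0.47 to 0.22 for Adcy3, -0.24 to 0.035 for Prkar2a, -0.16 to 0.39 for Pde4a, -0.18 to 0.22 for Pde7b and -0.36 to 1.06 for Crem, and Pde7b had 0.017 with the replicate block. The cause was not tested. By sex and by its interaction with region 0 members were called in any setting. Depth limits the members under 10 CPM most, where 1 count is worth 0.234 to 0.481 CPM.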
